A study of Mus musculus with 10 samples.

Results

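The genes of the cytosolic ribosomal proteins were followed through splenic T cells and type 2 conventional dendritic cells (cDC2s) of Cd47f/f and Cd47ΔT mice. Members were the protein-coding genes of the deposited table whose symbol is Rpl or Rps followed by a number and at most a short suffix (a, x, l or y, and a further digit), with symbols taken from a mouse GRCm38 annotation. The rule gave 79 of the 45706 genes in the table, 48 of the large and 31 of the small subunit. Of these, 6 carry the l suffix of a paralogue (Rpl3l, Rpl7l1, Rpl10l, Rpl22l1, Rpl39l and Rps27l), and the other 73 are called main genes here. No measured value entered the rule. A gene counted as testable in a cell type when it reached 1 TPM (a level per transcript length, on a scale that sums to the same total in every library) in at least 2 T cell or 3 cDC2 libraries. In each cell type 76 members passed, and Rpl3l, Rpl10l and Rpl39l did not.

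The study sequenced RNA of 10 spleen libraries: 2 of Cd47f/f T cells, 2 of Cd47ΔT T cells, 3 of Cd47f/f cDC2s and 3 of Cd47ΔT cDC2s. The series title places them in work on how CD47, a surface protein that restrains phagocytic cells, bears on T cell survival in the presence of dendritic cells. The labels name the genotypes only: they leave out the Cre line, the deleted exons, the age of the mice and how cells were isolated. They also do not tie libraries of a group to different mice. The p-values below therefore weigh a difference against variation between libraries, part or all of which may be technical. T cell RNA was made into libraries with a poly(A) kit (TruSeq stranded mRNA) and cDC2 RNA with a low-input kit (SMART-seq stranded), so cell type and kit cannot be told apart in any level set between the cell types.

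Cd47 itself measured 138 and 233 TPM in Cd47f/f and 40.4 and 51.7 TPM in Cd47ΔT T cells, without overlap, and 135 to 162 TPM in all 6 cDC2 libraries. The summed TPM of 10 T cell markers was 5148 to 5267 in Cd47f/f and 4848 to 5323 in Cd47ΔT T cell libraries, and 16.1 to 24.9 in cDC2 libraries, where Cd3g and Bcl11b were listed at 0 in every library. The 10 cDC2 markers summed to 10263 to 13116 TPM in Cd47f/f and 9633 to 9801 TPM in Cd47ΔT cDC2s. In T cells all 10 lists of markers of other cell types were higher in both Cd47ΔT libraries than in both Cd47f/f libraries. Limma called 57 of their 71 tested markers higher and 0 lower (adjusted p under 0.05), where 1 was lower at an unadjusted p under 0.05. Of all genes tested in T cells, 8.5% were called higher and 0.875% lower, and 37.0% were higher and 11.9% lower without overlap. All 10 macrophage markers were called higher, and their sum was 23.45 and 29.8 TPM in Cd47f/f and 180 and 284 TPM in Cd47ΔT libraries. A marker could pass the filter of 1 TPM through the 2 Cd47ΔT libraries alone, where these lists are higher. These T cell counts may therefore lean to the higher side, and how many markers passed that way was not counted. In cDC2s 1 of the 10 other lists was higher and 3 were lower without overlap. Limma called 1 of 44 tested markers higher and 1 lower, as well as 2 of the 10 cDC2 markers lower. Of all genes tested in cDC2s, 0.249% were called higher and 0.381% lower, and 6.38% were higher and 13.5% lower without overlap. The part of these marker shifts in the results on ribosomal protein genes was not tested. In bulk RNA, fewer cells of a type and less RNA per cell cannot be told apart.

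A ribosome is built of ribosomal RNA and a fixed set of proteins, and the genes of these proteins are among the most highly transcribed of a cell. Most of their mRNAs begin with a C and a run of pyrimidines, the terminal oligopyrimidine (TOP) start, through which the growth kinase complex mTORC1 and the binding protein Larp1 control their translation. T cells raise ribosome production when they are activated. Some of the proteins act outside the ribosome: free Rpl5 and Rpl11 inhibit Mdm2, the ligase that degrades p53. A few main genes have paralogues used in other tissues or states. Rps27l is a target of p53, and Rpl22l1 is a paralogue whose expression is held down by Rpl22, a protein that developing αβ T cells need.

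Promoters were read from a RefSeq table (GRCm38.p6) that held 54 of the 73 main genes and all 6 paralogues. The windows of 5 genes are shown, those called in T cells or lowest in p in cDC2s (Rpl12, Rps27l and Rpl22l1) and of the main partners of the paralogues (Rps27 and Rpl22). Each runs from 60 bases before the annotated start through 20 bases from it on, in the direction of the gene. Capitals mark motif matches, on either strand except the TOP start. The windows are, in order, chr2:32961652-32961731 (plus strand), chr3:90213629-90213708 (minus strand), chr9:66946026-66946105 (plus strand), chr4:152325666-152325745 (plus strand) and chr3:28805448-28805527 (plus strand).
Rpl12: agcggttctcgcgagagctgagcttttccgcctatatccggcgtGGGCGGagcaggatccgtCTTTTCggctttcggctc
Rps27: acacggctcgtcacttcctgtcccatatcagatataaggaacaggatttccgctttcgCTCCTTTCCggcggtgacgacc
Rps27l: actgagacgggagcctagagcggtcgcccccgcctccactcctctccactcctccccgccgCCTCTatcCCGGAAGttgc
Rpl22: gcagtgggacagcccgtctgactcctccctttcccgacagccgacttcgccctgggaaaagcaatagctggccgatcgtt
Rpl22l1: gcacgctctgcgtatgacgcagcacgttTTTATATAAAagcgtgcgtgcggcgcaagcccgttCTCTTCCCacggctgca
A TOP start (a C followed by at least 4 pyrimidines, on the gene strand, with the C from 5 before to 5 after the annotated start) lies in 4 of the 5 windows and not in that of Rpl22. Rps27l and Rps27 share it, and Rps27l alone of this pair holds CCGGAAG, the core bound by ETS factors. The window of Rpl22l1 holds TATAAA on each strand, the matches overlapping, and that of Rpl22 holds none of the motifs searched. Motifs were counted over the 300 bases of each promoter in the table, the TOP start only at its stated place by the annotated start. Where several starts were listed, members were read at the one nearest the GENCODE 5′ end. The set of all promoters took the first listed for each gene, so the starts compared were chosen differently. The TOP start occurred in 46.3% of the 54 main genes and 18.5% of all 27025 promoters. CCGGAAG occurred in 38.9% against 9.12%, AANATGGC (the YY1 motif) in 18.5% against 6.23%, and GGGCGG (the SP1 box) in 57.4% against 35.9%. The E-box CACGTG was at 9.26% against 7.24% and TATAAA at 7.41% against 14.2%. These are matches of letters and were tested against nothing. The annotated start of Rpl12 lies 153 bases and that of Rpl22l1 72 bases from the gene's 5′ end in the GENCODE annotation, and the other 3 differ by at most 16 bases.

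Ribosomal protein mRNA made up a larger part of the TPM in T cell than in cDC2 libraries. The 79 genes held 30.8% and 26.0% of all TPM in the Cd47f/f T cell libraries 1 and 2, and 26.5% and 25.6% in the Cd47ΔT libraries 1 and 2. Cd47f/f library 1 stood above the other 3, which lay within 1 percentage point of each other. In cDC2s the genes held 10.8%, 10.1% and 11.999% in Cd47f/f libraries and 9.56%, 10.1% and 10.4% in Cd47ΔT libraries, and these groups overlapped. Other RNA classes differed between the cell types too: small non-coding RNA held 21.1% to 30.4% of all TPM in cDC2 libraries and 0.191% to 0.515% in T cell libraries. Of the TPM of nuclear protein-coding genes, the members took 29.7% to 36.7% in T cells and 14.8% to 16.2% in cDC2s. Cd47f/f cDC2 library 3, the highest of its kind in ribosomal protein mRNA, was also apart in small nucleolar RNA genes, at 1.68% of all TPM against 7.35% to 8.81% in the other 5.

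The balance of the subunits also differed between the cell types. Large over small subunit TPM was 0.965 and 0.977 in Cd47f/f and 0.993 and 1.01 in Cd47ΔT T cells, higher in both Cd47ΔT libraries by a small margin. In cDC2s the ratio was 1.29, 1.26 and 1.28 in Cd47f/f and 1.27, 1.26 and 1.27 in Cd47ΔT libraries, with overlap. The plot of subunit sums by library shows these values.

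**Figure D1:**
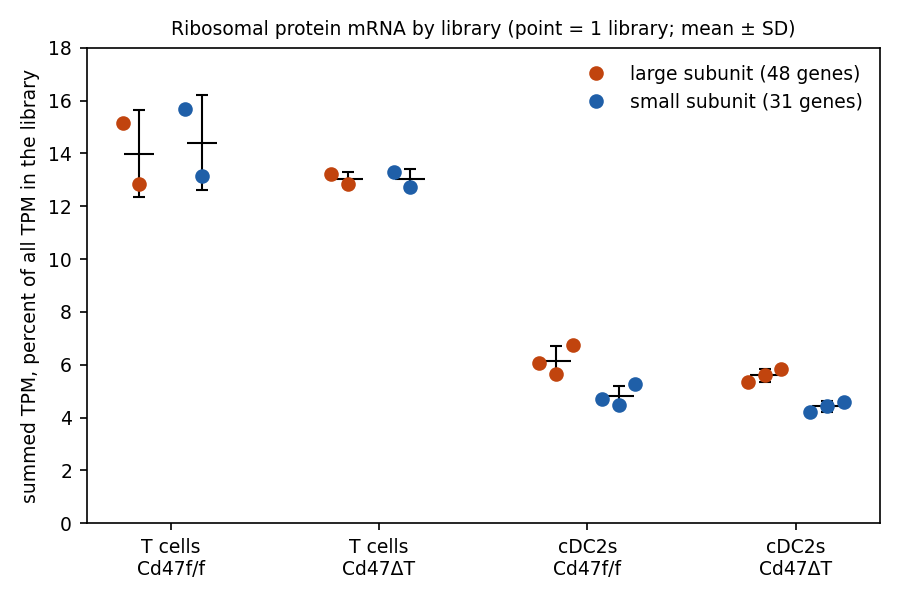
Summed TPM of the 48 large and 31 small subunit genes, as percent of all TPM in a library (vertical axis), by cell type and genotype. Each point is 1 library and each cross a group mean with its SD; Cd47f/f T cell library 1 is the highest of all, and in cDC2s the large subunit sum lies above the small one in every library.

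Main genes of 1 subunit spanned 5.90-fold to 9.42-fold in mean TPM within a cell type. In T cells the highest by mean TPM over the 4 libraries was Rps27, a small subunit protein with a zinc finger, at 15435 and 12515 TPM in Cd47f/f and 11730 and 11064 TPM in Cd47ΔT libraries. Rps24 (mean 9231 TPM), Rpl13a (8152 TPM), which also acts in a complex that silences mRNAs after interferon, and Rps29 (8040 TPM) followed. The lowest main genes were Rpl37 of the large subunit, at a mean of 1056 TPM, and Rps25 of the small subunit, at 2151 TPM. In cDC2s the order was another: Rpl26 (mean 4118 TPM), Rpl23a (3702 TPM), Rps26 (3596 TPM) and Rps23 (3234 TPM) led, and Rpl15 (437 TPM) and Rps25 (402 TPM) closed the large and the small subunit. Neighbours near the top of cDC2s did not differ beyond their spread: in Cd47f/f libraries Rpl26 was at 4304 ± 541 TPM (SD, n = 3), Rpl23a at 3892 ± 284 TPM and Rps26 at 3700 ± 817 TPM.

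Across the 73 main genes Spearman's rho of the mean levels was 0.97 between the T cell genotypes and 0.99 between the cDC2 genotypes, and 0.53 between Cd47f/f T cells and Cd47f/f cDC2s. These are descriptions over genes that share libraries and transcript lengths. The ratio of T cell to cDC2 TPM in Cd47f/f libraries ran from 0.922 (Rpl29) to 7.23 (Rpl12) with a median of 2.81, and was above 1 in 70 of 73 main genes. Taken as shares of the summed member TPM, which sets the overall gap aside, Rps27 (4.91% in T cells against 2.68% in cDC2s), Rps24 (3.59% against 2.31%) and Rpl12 (1.63% against 0.583%) were further ahead in Cd47f/f T cells. Rpl26 (1.44% against 3.92%), Rps23 (1.19% against 3.22%) and Rps26 (1.499% against 3.35%) were further ahead in Cd47f/f cDC2s. SDs of these shares were at most 0.449 percentage points, that of Rps26 in cDC2s, so each of the 6 gaps exceeded the spread between libraries. With kit and cell type confounded, no test was made.

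**Figure D2:**
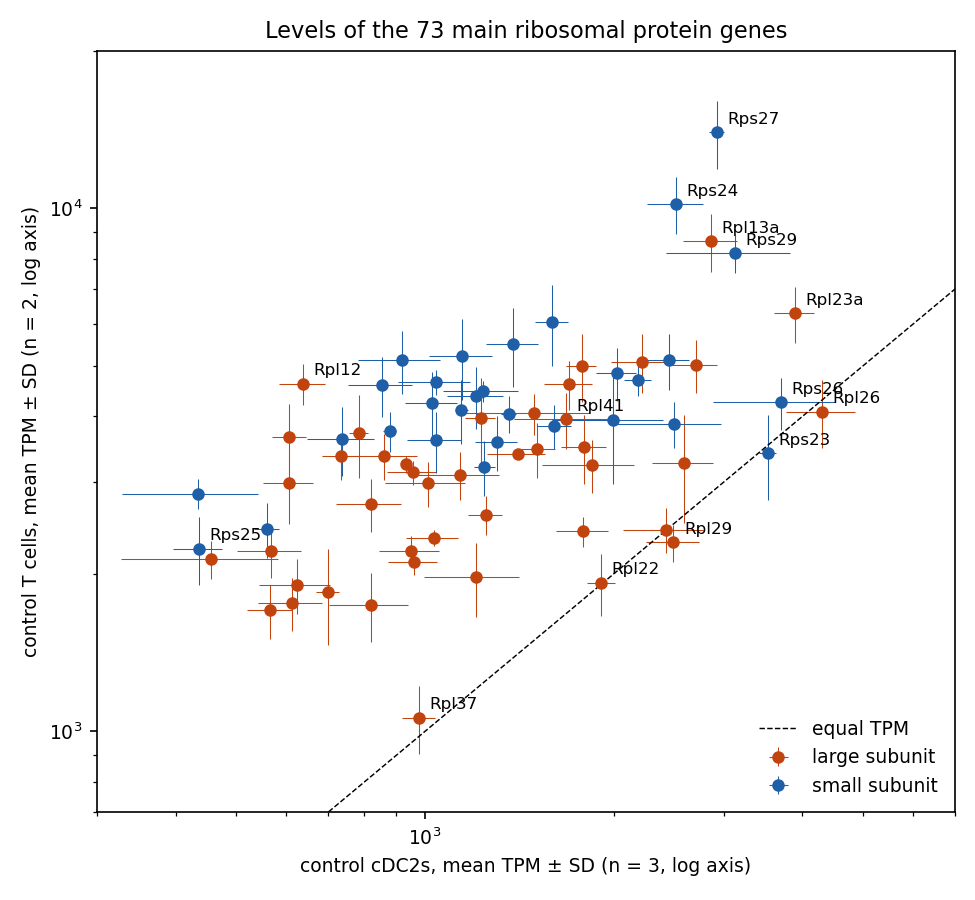
Mean TPM of the 73 main genes in Cd47f/f cDC2s (horizontal, log axis, n = 3) against Cd47f/f T cells (vertical, log axis, n = 2), with SD bars and the line of equal TPM. Most genes lie above the line; Rpl29, Rpl26 and Rps23 lie just under it, and Rps27 is the highest in T cells.

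The genotype effect was tested with limma on log2(TPM + 1) over all genes in each cell type, so fold changes are on that scale. In T cells 1 of 76 members was called higher in Cd47ΔT (Rps27l) and 1 lower (Rpl12). Over all 12453 genes tested, 8.5% were called higher and 0.875% lower. Rps27l, the small subunit paralogue that p53 induces, stood at 112 and 86.7 TPM in Cd47f/f and at 151 and 159 TPM in Cd47ΔT libraries. It rose by 0.65 ± 0.15 (log2 fold change ± SE, limma adjusted p = 0.0493) without overlap. Rpl12, a protein at the base of the stalk that recruits translation factors, stood at 4919 and 4326 TPM in Cd47f/f and at 3462 and 3245 TPM in Cd47ΔT libraries. It fell by 0.46 on the log2 scale (SE 0.10, limma adjusted p = 0.0387), also without overlap.

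Both calls sit close to the threshold. That of Rps27l was lost without either Cd47ΔT library (limma adjusted p = 0.163 and 0.252), and that of Rpl12 without Cd47f/f library 1 (0.0671) or either Cd47ΔT library (0.16 and 0.32), while both kept their direction. In all, Rps27l missed the threshold in 10 of 16 alternative settings. Besides the libraries left out, these were a pseudocount of 0.1, no filter, the 5 TPM filter, quantile, median-of-ratios or protein-coding scaling, no variance trend and 1 fit of all libraries. Rpl12 missed it in 6 of 16, also without a filter, under median-of-ratios scaling and without a variance trend.

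Other members with a small p were not called. Rpl8, a core protein of the large subunit, was at 4959 and 4265 against 3612 and 3535 TPM (log2 fold change -0.36, limma adjusted p = 0.0826). Its genotypes did not overlap. On the higher side stood Rpl41, which encodes the shortest protein of the ribosome, at 4298 and 3607 against 5031 and 4838 TPM (0.33, limma adjusted p = 0.137), Rps26, a protein of the mRNA exit channel, at 4594 and 3916 against 4889 and 4725 TPM (0.18, 0.413), and Rpl27, at 2195 and 1747 against 2192 and 2125 TPM (0.14, 0.648). Rpl41 and Rps26 did not overlap between genotypes, and Rpl27 did.

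Most members had lower means in Cd47ΔT T cells, and the typical difference was smaller than the gap between the Cd47f/f libraries. The median log2 fold change of the 76 members was -0.11, with 58 below 0, beside 0.10 over all genes tested. By subunit the median was -0.09 over 45 large and -0.13 over 31 small subunit genes. Without overlap between genotypes, 4 members were higher (Rpl36a, Rpl41, Rps26 and Rps27l) and 29 lower; of all genes tested, 37.0% were higher and 11.9% lower without overlap. Cd47f/f library 1 exceeded Cd47f/f library 2 in 75 of the 76 members, with a median gap of 0.24 on the log2 scale. Without library 1 the median of the members was 0.01 and 35 were below 0, beside a median of -0.006 and 50.7% below 0 over all genes. Without library 2 the median of the members was -0.23 with 70 below 0, beside 0.23 and 21.7% below 0 over all genes. Each of these 2 fits leaves 1 library in the Cd47f/f group. Other scalings moved the median of all genes from 0.10 to -0.08 (quantile), -0.01 (median of ratios) or 0.07 (protein-coding genes), and that of the members to -0.05, -0.23 and -0.15. The members' median was thus below that of all genes on the deposited scale, by median of ratios and by protein-coding scaling, and above it by quantile scaling. Quantile scaling called 672 of all genes higher and 325 lower, against 1058 and 109 on the deposited scale.

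In cDC2s limma called 0 of 76 members in either direction, and 8 had an unadjusted p under 0.05. Over all 12058 genes tested, 0.249% were called higher and 0.381% lower (30 and 46 genes, against 37 and 37 under quantile, 40 and 35 under median-of-ratios and 35 and 32 under protein-coding scaling). Rpl22l1, the paralogue of Rpl22, came closest: it was at 69.4, 82.9 and 75.1 TPM in Cd47f/f and at 53.4, 43.7 and 55.4 TPM in Cd47ΔT libraries, without overlap (log2 fold change -0.57 ± 0.13 SE, limma adjusted p = 0.116). A fit of all 10 libraries together gave it an adjusted p of 0.0414. Rps23, which lies at the decoding centre, was at 3548, 3404 and 3614 against 2866, 2899 and 3075 TPM (-0.26, limma adjusted p = 0.259), without overlap. Rpl32 (-0.24, 0.267) and Rpl12 (-0.26, 0.291) did not overlap either. Rpl12, the gene that fell in T cells, was at 638, 585 and 695 TPM in Cd47f/f and at 539, 504 and 558 TPM in Cd47ΔT cDC2s.

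The highest log2 fold changes in cDC2s were those of Rps27l, Rps19 and Rpl27, among the members reported here. Rps27l was at 22.2, 46.5 and 30.3 TPM in Cd47f/f and 39.0, 39.1 and 50.3 TPM in Cd47ΔT libraries (0.42 ± 0.25 SE, limma adjusted p = 0.538). Its groups overlapped through Cd47f/f library 2. Rps19 (0.06) and Rpl27 (0.01) had limma adjusted p of 0.837 and 0.987. Rps19 is among the genes mutated in Diamond-Blackfan anaemia, a failure of red cell production.

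The cDC2 differences were small and mostly of 1 sign. The median of the 76 members was -0.12 with 72 below 0, beside -0.07 and 60.7% below 0 over all genes tested. It was -0.084 with 66 below 0 under quantile, -0.050 with 59 under protein-coding and -0.036 with 56 under median-of-ratios scaling, where 49.8% to 51.8% of all genes were below 0. Without overlap, 0 members were higher and 19 lower, beside 6.38% and 13.5% of all genes tested. Without Cd47f/f library 3, the one apart in small nucleolar RNA, the median was -0.06 with 54 below 0 and limma called 0 members. Introns of ribosomal protein genes carry many of the small nucleolar RNAs that guide ribosomal RNA modification: 28 members held 54 such genes inside them. Their median in cDC2s was -0.15 against -0.11 for the 45 main genes without one, and in T cells -0.12 against -0.11. Across the 73 main genes Spearman's rho of the log2 fold changes was 0.16.

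**Figure D3:**
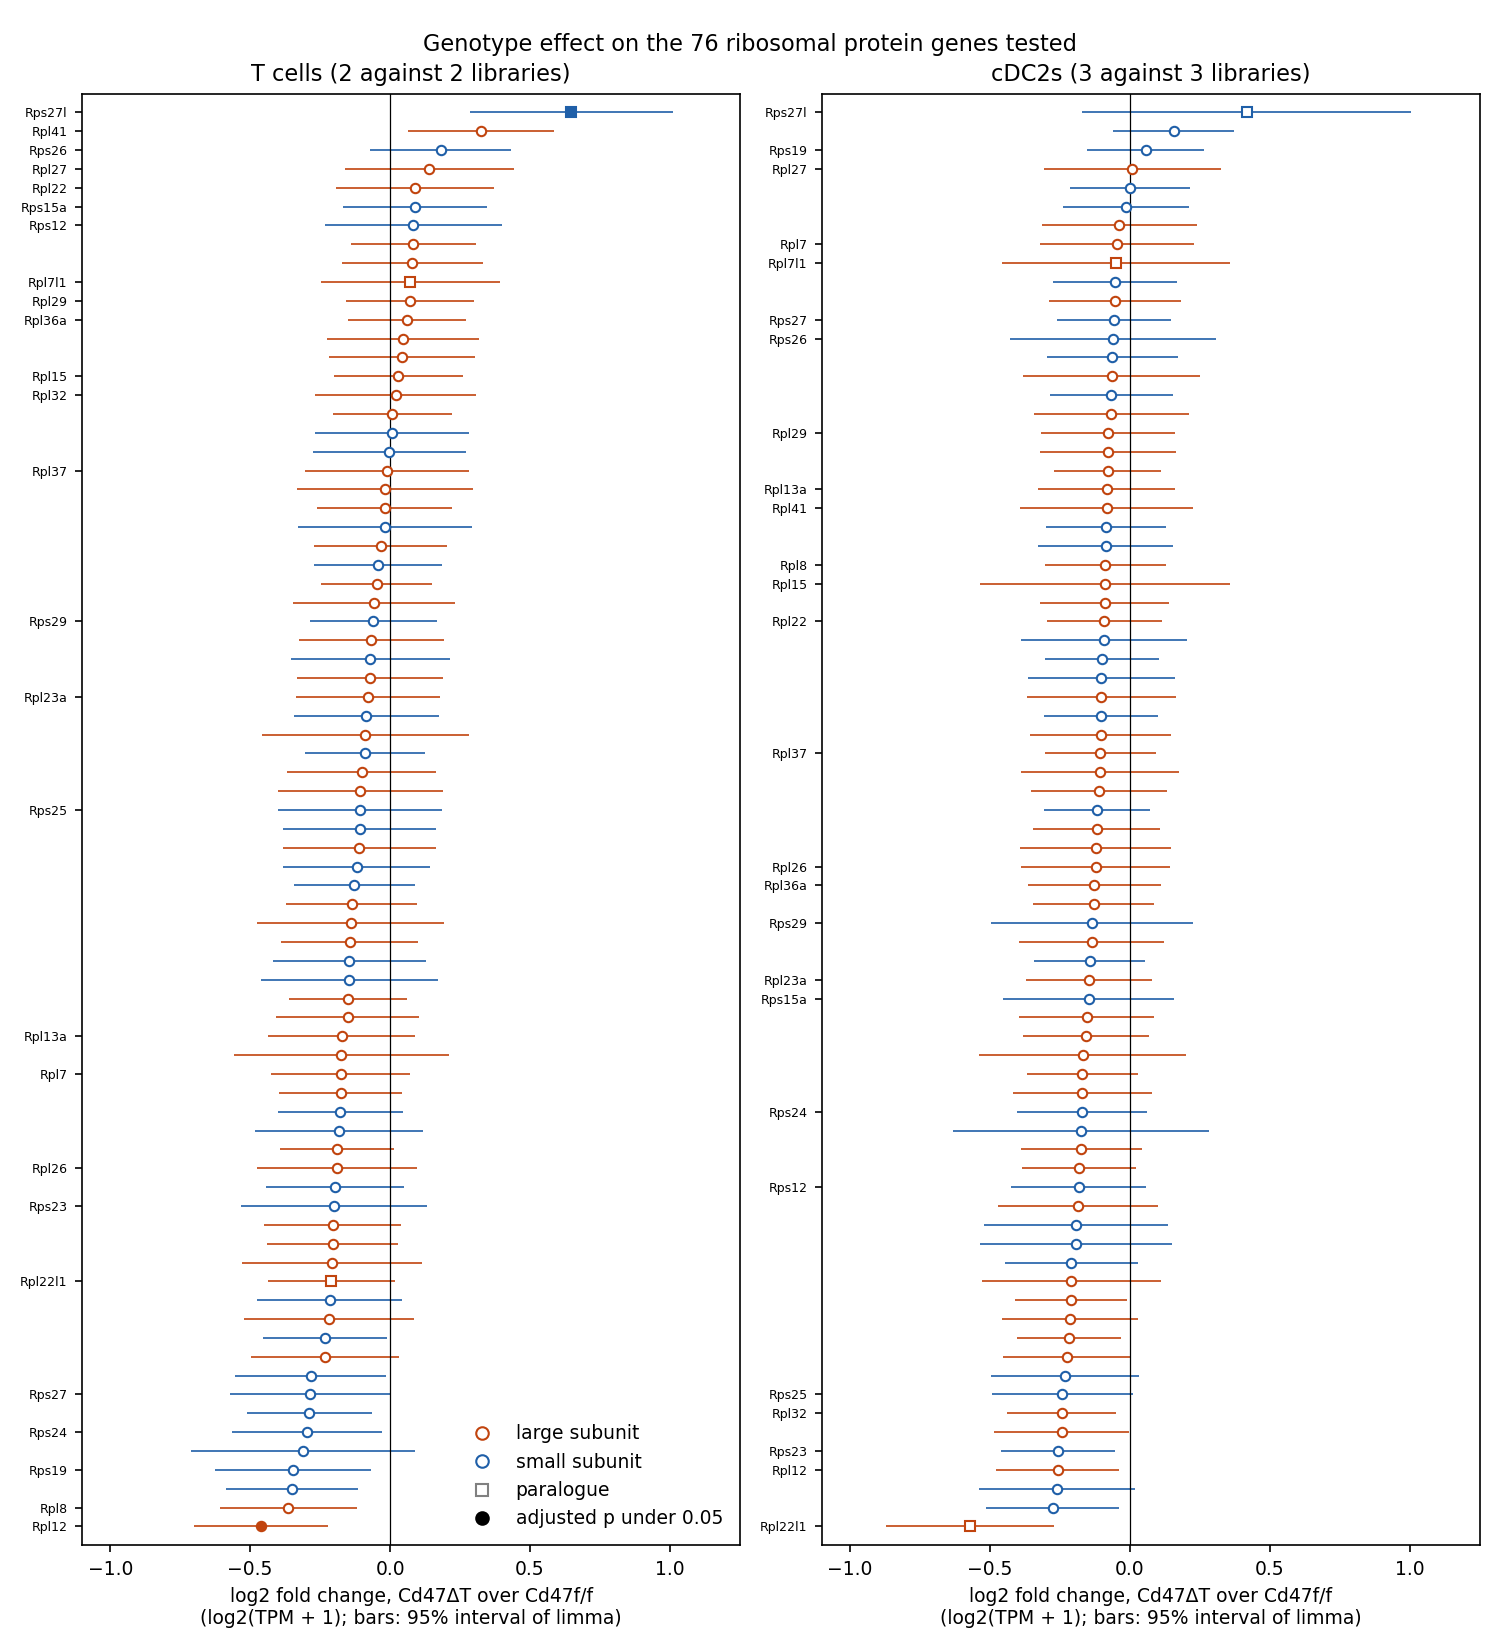
Log2 fold change (Cd47ΔT over Cd47f/f, on log2(TPM + 1)) of the 76 members tested, in T cells (left) and cDC2s (right), each panel sorted by its own values, with 95% intervals of limma and names for members given in the text. Squares are paralogues and filled symbols are called: Rps27l (0.65) and Rpl12 (-0.46) in T cells and none in cDC2s.

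Whether the genotype effects differed between T cells and cDC2s was tested as an interaction over the 10650 genes that passed both filters. Limma called 0 members, 2 had an unadjusted p under 0.05, and 5.4% of all genes were called with a higher and 0.3% with a lower effect in T cells. The difference of Rps27l was 0.23 ± 0.35, that of Rpl12 -0.20 ± 0.15 and that of Rpl22l1 0.36 ± 0.18, all with limma adjusted p of at least 0.395. For the 2 members called in T cells, a difference between the cell types was not detectable with these libraries. Quantile scaling split the calls over all genes into 319 higher and 82 lower, against 575 and 32 on the deposited scale.

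To separate the make-up of ribosomal protein mRNA from its total, TPM were also scaled to the summed TPM of the members, so that each value is a share of that sum. On this scale the sum is equal in all libraries by construction, and limma called 5 members higher and 6 lower in Cd47ΔT T cells, beside 11.4% of all genes higher and 0.675% lower. The moderation took its variance wholly from the trend over genes here, so these p-values rest on the pooled spread. With this scaling the median SE of the members went from 0.108 to 0.082, and that of all genes from 0.20 to 0.34. As the sum is fixed, a gain in share by some members is a loss by others. The shares over all genes are therefore not a like comparison. Leaving out a T cell library leaves 1 library in a group, and the number of members called varied widely between these fits. Without Cd47f/f library 2 the median log2 fold change of all genes was 0.45 on this scale, against 0.21 with all libraries. That of the members was 0.02, against 0.01.

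Rpl41 had the smallest p: its share was 1.39% in each Cd47f/f library and 1.90% and 1.89% in the Cd47ΔT libraries (log2 fold change 0.45 ± 0.07 SE, limma adjusted p = 5.52e-08). It remained called in 4 of 4 fits that left out a library. Rps26 rose from 1.49% and 1.51% to 1.84% and 1.85% (0.30, limma adjusted p = 5.69e-04) and was called in 2 of the 4. Rpl41 and Rps26 are neighbours on chromosome 10, with 75.2 kb between them (GRCm38, Rpl41 at chr10:128548114-128549305 and Rps26 at chr10:128624534-128626747, both on the minus strand), a closeness seen after their values. Rps12 (0.20), Rps15a (0.21) and Rps27l (0.77) were the other 3 called higher, each with limma adjusted p near 0.025 and called in 1 or 2 of 4 fits.

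Of the 6 lower, Rpl12 went from 1.59% and 1.67% to 1.31% and 1.27% of the sum (-0.34, limma adjusted p = 1.74e-04). Rps27, the most abundant of all, went from 5.005% and 4.82% to 4.42% and 4.33% (-0.17, 0.00433). Rps24, another gene of Diamond-Blackfan anaemia, went from 3.59% and 3.58% to 3.24% and 3.11% (-0.18, 0.00983). Rpl8 (-0.24) and Rps19 (-0.23) had limma adjusted p of 0.0133 and 0.038. Each of these 5 was called in 1 or 2 of the 4 fits that left out a library.

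In cDC2s the same scaling called 0 members, beside 0.332% of all genes higher and 0.174% lower, and 2 members had an unadjusted p under 0.05. Rpl41 (0.04) and Rps26 (0.07) showed no call there.

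**Figure D4:**
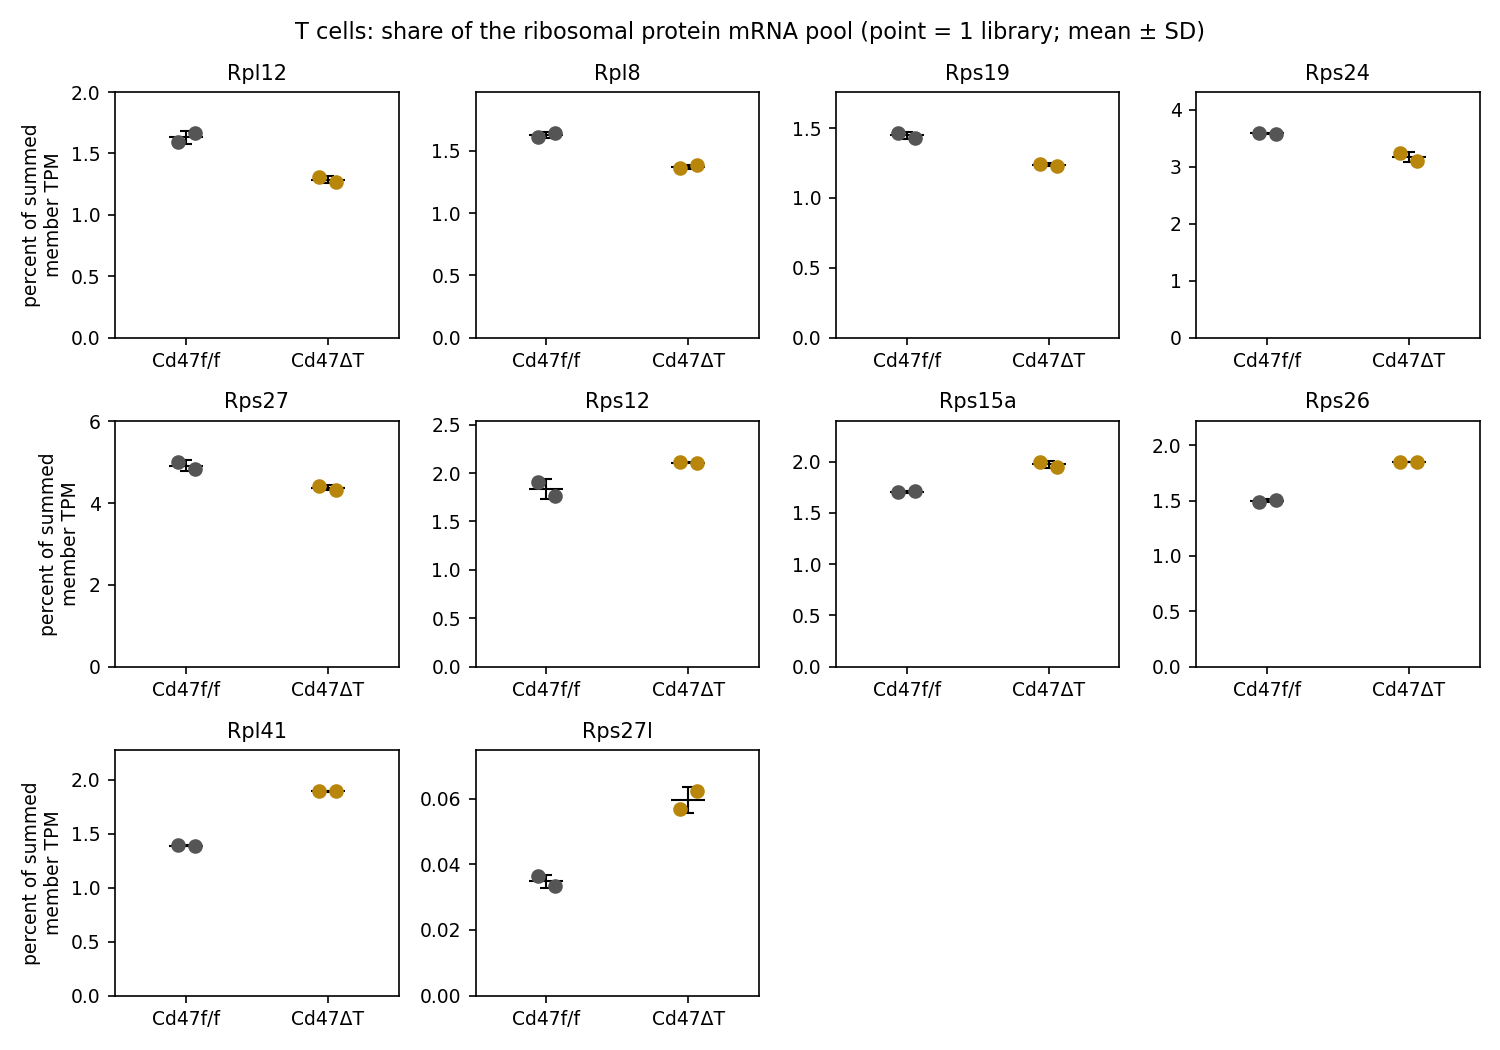
Share of the summed member TPM (percent, axes start at 0) in T cells for 10 of the 11 members called on the scale of that sum. Each point is 1 library, with group mean and SD; Rpl41 goes from 1.39% to 1.90% and Rps26 from 1.499% to 1.85%, with little spread within a genotype.

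Paralogues stayed minor beside their main genes, and the pairs differed in how far. Rps27l was 0.725% and 0.692% of Rps27 in Cd47f/f and 1.28% and 1.44% in Cd47ΔT T cells, without overlap. Rps27 itself had a log2 fold change of -0.29 (limma adjusted p = 0.229). In cDC2s the ratio was 0.782%, 1.55% and 1.04% in Cd47f/f and 1.39%, 1.33% and 1.88% in Cd47ΔT libraries, with overlap. Rpl22l1 was the highest of the 6 in T cells, at 666 and 638 against 581 and 546 TPM. That was 31.6% and 36.7% of Rpl22 in Cd47f/f and 27.6% and 27.7% in Cd47ΔT T cells. In cDC2s, where Rpl22 had about the same level (1911 ± 96.9 TPM, SD, n = 3, in Cd47f/f against 1925 ± 261 TPM, n = 2, in T cells), Rpl22l1 was 3.60%, 4.59% and 3.76% of it in Cd47f/f and 3.15%, 2.40% and 2.97% in Cd47ΔT libraries. Rpl22l1 was lower against Rpl22 in every Cd47ΔT library of its cell type, though limma did not call it in either.

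Rpl7l1, whose product acts in ribosome assembly, was 1.44% and 1.87% of Rpl7 in Cd47f/f and 1.90% and 2.003% in Cd47ΔT T cells. It was 3.39% ± 0.341 (SD, n = 3) and 3.38% ± 0.298 of Rpl7 in the cDC2 genotypes. The 3 remaining paralogues are known from muscle or testis. Rpl10l was listed at 0 in all 10 libraries, Rpl3l reached 0.38 TPM in 1 cDC2 library and was listed at 0 in the rest, and Rpl39l peaked at 1.23 TPM.

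**Figure D5:**
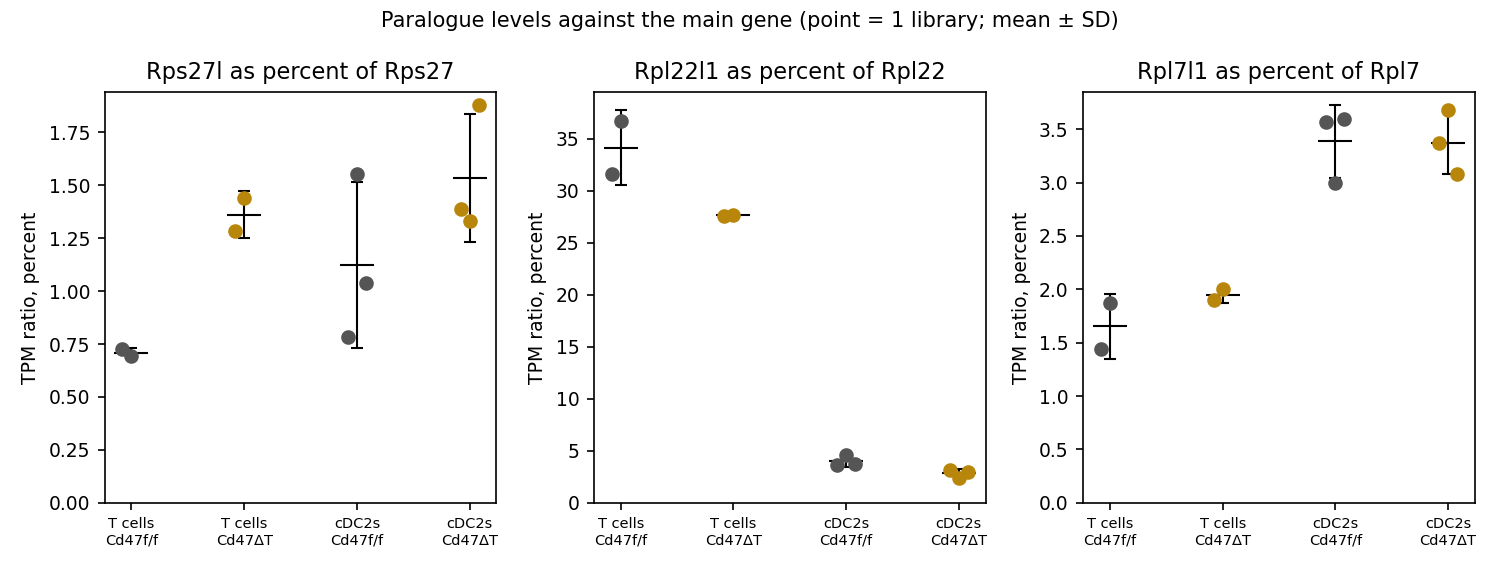
TPM of a paralogue as percent of its main gene (axes start at 0) in each library, with group mean and SD. Rps27l lies between 0.692% and 1.88% of Rps27, Rpl22l1 is near 30% of Rpl22 in T cells and under 5% in cDC2s, and Rpl7l1 lies at 1.44% to 3.68% of Rpl7.

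Lists of the same pathway, in this and the next paragraph, stand beside 8.5% of all genes called higher and 0.875% lower in T cells. In cDC2s these shares were 0.249% and 0.381%, so 0 calls in a list say little there. Ribosomal proteins outside the symbol rule, among them the stalk proteins Rplp0, Rplp1 and Rplp2, had a median log2 fold change of -0.06 in T cells and -0.09 in cDC2s, and limma called 0 of 8 in each (1 and 0 at an unadjusted p under 0.05). The smallest p were those of the stalk proteins, Rplp2 in T cells (-0.29, limma adjusted p = 0.194) and Rplp1 in cDC2s (-0.18, 0.445). Translation factors whose mRNAs carry a TOP start had medians of 0.05 and -0.11, with 0 of 19 called by limma in each (1 in each at an unadjusted p under 0.05). Among them Tpt1 (-0.31, limma adjusted p = 0.0934) was the closest in T cells and Eef1b2 (-0.21, 0.333) in cDC2s.

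Initiation factors (28) had medians of 0.04 in T cells and -0.07 in cDC2s and ribosome biogenesis genes (46) of 0.06 and 0.03, and limma called 0 in each cell type. At an unadjusted p under 0.05 there were 2 and 1 initiation factors and 1 and 1 biogenesis genes. Closest in T cells were Eif5a (0.32, limma adjusted p = 0.0834) and Nhp2, a protein of the pseudouridine-guiding particles (0.41, 0.095). Growth and mTORC1 genes had medians of -0.03 over 19 genes in T cells and -0.14 over 20 in cDC2s, with 0 called by limma in each cell type and 2 in each at an unadjusted p under 0.05. In the interaction 1 of them, the Myc family gene Mycl, was called. It was at 0.1 and 0.21 against 1.01 and 1.78 TPM in T cells and 89.5, 55.5 and 101 against 47.6, 41.7 and 60.6 TPM in cDC2s (difference 1.71 ± 0.38 SE, limma adjusted p = 0.0213). Mycl passed the T cell filter only through the Cd47ΔT libraries, where it is higher, so its call is no support for the list. In the same libraries the summed TPM of 10 cDC2 markers was 108 to 189.5, against 17.1 to 22.5 in Cd47f/f T cells, and its part in the Mycl difference was not tested.

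Of 15 tested p53 targets, a list that includes Rps27l, limma called 3 higher and 0 lower in T cells, with a median of 0.31, beside 8.5% called higher and a median of 0.10 over all genes. Phlda3, an Akt inhibitor, rose from 1.26 and 0.84 to 4.33 and 3.83 TPM (1.32, limma adjusted p = 0.0229). Only 1 Cd47f/f library reached 1 TPM, where the filter asks for 2 T cell libraries. Phlda3 thus passed with the help of the Cd47ΔT libraries, where it is higher, and its call is no support for the list. The third, Cdkn1a, which encodes the cell cycle inhibitor p21, was at 0.32 and 0.82 against 4.12 and 4.40 TPM (1.76, limma adjusted p = 0.013). It passed the filter of 1 TPM only through the Cd47ΔT libraries, where it is higher, so its call is no support for the list. Mdm2 and the rest were not called. In cDC2s limma called 0 of 15 (1 at an unadjusted p under 0.05), with a median of 0.14, and Phlda3 was closest (1.32, limma adjusted p = 0.0878). The interaction called 1 of 15, Pmaip1, which encodes the death-promoting protein Noxa (1.40 ± 0.35 SE, limma adjusted p = 0.0376), beside 5.4% of all genes. Cdkn1a, Phlda3 and Pmaip1 were higher in the same T cell libraries in which the lists of other cell types were higher, and the part of those cells was not tested.

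Mitochondrial ribosomal proteins, a separate family of 78 genes, had a median of the other sign from the cytosolic ones in T cells. It was 0.16 with 65 above 0 in T cells, beside -0.11 for the cytosolic members and 0.10 for all genes, and -0.04 in cDC2s, where it was 0.05 under quantile and median-of-ratios, 0.03 under protein-coding and 0.09 under ribosomal protein scaling. In T cells it stayed above 0 under these scalings. Limma called 1 of 78 higher in T cells (Mrpl33, from 149 and 136 to 218 and 206 TPM, 0.57, adjusted p = 0.0295) and 0 in cDC2s, where 7 had an unadjusted p under 0.05. Of all genes tested, 8.5% were called higher in T cells, and 0.249% higher and 0.381% lower in cDC2s. These counts thus show no excess of calls in the family. The call of Mrpl33 was lost without either Cd47ΔT library, without a filter, under quantile or median-of-ratios scaling, when both cell types were fitted jointly and when the variance trend was left out. The share of the 78 genes in all TPM was 0.421% and 0.406% in Cd47f/f and 0.481% and 0.459% in Cd47ΔT T cells, without overlap, while the summed share of the cytosolic members overlapped between the genotypes.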

How the data were processed

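Per the labels' protocols, T cell RNA (RNeasy mini) and cDC2 RNA (RNeasy micro) were made into libraries with different kits. The authors deposited TPM for 45706 genes in 10 libraries. The submitters' processing notes name STAR, RSEM, DESeq2 and the GRCm38 build, without tool versions. TPM keep no read depth, so depth and counting error are unknown. Of the gene identifiers 45143 (98.8%) matched GENCODE M21 (GRCm38), which gave symbols and classes, and 563 did not. 5 other genes whose symbols match the rule are not protein-coding and were left out. Ribosomal protein genes have many processed copies (268 pseudogenes in the table, at 0.152% to 0.718% of all TPM), and no label or header says how reads were shared between a gene and its copies, which leaves single levels uncertain.

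Genes that reached 1 TPM in 2 or more T cell or 3 or more cDC2 libraries were tested on log2(TPM + 1) with limma 3.58.1 in R 4.3.3 (eBayes with a variance trend, two-sided), 1 fit per cell type and an interaction in 1 fit of all libraries. p-values were adjusted by Benjamini-Hochberg over all genes tested and called under 0.05. The code was tested on simulated data. Levels, shares and ratios are means ± SD without a test, made with Python 3.11.15 and pandas 2.3.3. Gene lists are described by counts and medians only. Alternatives were pseudocounts of 0.1 and 5, no filter or 5 TPM, 4 other scalings, an omitted or robust variance trend, a joint fit of both cell types, a block for the replicate number, and leaving out each library.

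Members were named if called (up to 12 each way), to fill each direction to 4 by smallest p, if part of a paralogue pair, if among the 4 highest or under 1 TPM throughout, or if among the 3 largest gaps in share either way. Of other lists the called genes or those with the smallest p were named. The members and lists were chosen with earlier results of these data known. Some members that this rule names are not reported here.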

Additional observations from a re-analysis of the deposited data

How the results depend on the processing

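In T cells the count of all genes called (1167) became 15 without a filter, 758 with a filter of 5 TPM and 725 to 1568 when a library was left out. Members called higher (1) became 0 with a pseudocount of 0.1, no filter, the 5 TPM filter, median-of-ratios or protein-coding scaling, no variance trend or 1 fit of all libraries. They became 2 under quantile scaling and 5 under ribosomal protein scaling, and the number also moved when a library was left out. Members called lower (1) became 0 without a filter, under median-of-ratios scaling or without a variance trend, 6 under ribosomal protein scaling and 0 to 17 without a library. The median of the members (-0.11) became -0.23 under median-of-ratios scaling, 0.0114 under ribosomal protein scaling and -0.23 to 0.0149 without a library. In cDC2s all genes called (76) became 6 without a filter, 12 without a variance trend, 171 in 1 fit of all libraries and 0 to 14 without a library. Members called stayed at 0, except 1 lower (Rpl22l1) in 1 fit of all libraries. The cDC2 median was 0.0102 under ribosomal protein scaling. For the difference between cell types the genes called (607) became 395 with the 5 TPM filter, 401 after quantile scaling and 302 to 607 without a library. Members called lower there (0) became 1 with a pseudocount of 0.1, protein-coding or ribosomal protein scaling and a robust trend, and 0 to 1 without a library. The cause of these shifts was not tested, beyond fewer or more genes entering with the filter. On ribosomal protein scaling, chosen for single libraries after the data were seen, leaving out a cDC2 library gave 0 members called. The number called in T cells varied widely when a library was left out. Without Cd47f/f T cell library 2 the median of all genes was 0.45 on this scale and that of the members 0.02.

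Of 356 recomputed values of named members, 313 kept their direction and side of the threshold, 22 gained and 16 lost a call, and 5 changed sign. These were Rpl27 in T cells without Cd47f/f library 2 (-0.0247, with 0.30 without library 1 as the other end), Rpl27 in cDC2s without Cd47f/f library 1 (-0.0796), Cd47f/f library 2 (-0.0415) or Cd47ΔT library 3 (-0.0533), up to 0.15 without Cd47f/f library 3, and the difference of Rps27l without Cd47f/f cDC2 library 2 (-0.0411), up to 0.48 without Cd47f/f cDC2 library 1. The adjusted p of limma ran from 7.59e-05 to 0.271 for Rps27l in T cells (under 0.05 in 6 of 16 alternatives) and from 1.36e-05 to 0.32 for Rpl12 (10 of 16).

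Replicate numbers are shared across genotypes, and the labels do not say that a number ties libraries together. Deviations from the group mean were correlated over genes between libraries of the 2 genotypes. In T cells same-numbered libraries correlated at 0.19. With 2 libraries a group the crossed value, -0.19, is its negative by construction, and 2 pairs cannot settle whether they are paired. In cDC2s the 3 pairs correlated at -0.04, 0.06 and 0.12. The numbers were therefore not used as pairs. With the replicate block limma called 2296 genes in T cells, 1986 higher and 310 lower, and among them 2 members higher and 9 lower. In this T cell fit too the moderation took its variance wholly from the trend over genes. The block gave 4 genes and 0 members in cDC2s, and 1 member lower in the difference.

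With 2 libraries a group in T cells, the spread of a gene rests on few values and on the trend over all genes. Depth is unknown. Where a group was left with 1 library, it was assumed to vary like the other.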
